A study of Mus musculus with 12 samples.

Results

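Hormones that change around puberty and the stress hormone corticosterone act on the thymus through receptors, and the 9 genes described here are 4 steroid receptors (Esr1, Nr3c1, Nr3c2 and Pgr), 3 receptors of the cytokine receptor family (Ghr, Prlr and Lepr) and 2 widely used glucocorticoid target genes (Fkbp5 and Tsc22d3). They were chosen by gene symbol, and the estimated counts of all transcripts with that symbol were summed, which gave 62 transcripts for the 9 genes among 22843 genes in the table. Thymuses came from male wild-type mice of the C57BL/6 strain at 2 weeks (2W), 6 weeks (6W) and 3 months (3M) of age, with 2 libraries per age and no treatment or transgene in any group. RNA of the whole organ was sequenced after removal of ribosomal RNA, so that a lower or higher level in thymocytes, epithelium, fat or connective tissue cannot be told apart from fewer or more of those cells. The study asked how the thymus changes while it grows, from 2W to 6W, and while it declines, from 6W to 3M. All 9 genes passed the filter on low counts, and 14805 genes were tested.

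Steroid receptors are transcription factors that bind their hormone in the cell and then bind DNA, as the oestrogen receptor (Esr1), the glucocorticoid receptor (Nr3c1), the mineralocorticoid receptor (Nr3c2) and the progesterone receptor (Pgr) do. The receptors for growth hormone (Ghr), prolactin (Prlr) and leptin (Lepr) lie in the cell membrane and signal through JAK kinases and STAT factors. Glucocorticoids kill double-positive thymocytes at high dose, and sex steroids are known to drive shrinkage of the thymus. Fkbp5 encodes a co-chaperone that lowers hormone binding by the glucocorticoid receptor, and Tsc22d3 encodes the glucocorticoid-induced leucine zipper protein GILZ. Both genes are induced by the glucocorticoid receptor in many cell types.

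The promoters of the 3 receptors with the largest fitted increases, Pgr, Lepr and Nr3c2, and of the target gene Tsc22d3 are shown because receptors of this group bind DNA at short paired sequences. Each run holds the 250 bases before a RefSeq transcription start on build GRCm38.p6, and capitals mark the half-sites TGTTCT, bound by the receptors for glucocorticoids, mineralocorticoids and progesterone, and GGTCA, bound by oestrogen receptors, searched on both strands.
Pgr, chr9:8899583-8899832, plus strand: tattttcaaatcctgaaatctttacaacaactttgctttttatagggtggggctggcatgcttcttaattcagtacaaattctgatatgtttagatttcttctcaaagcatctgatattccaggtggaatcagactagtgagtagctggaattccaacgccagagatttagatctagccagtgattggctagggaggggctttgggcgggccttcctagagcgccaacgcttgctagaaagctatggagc
Lepr, chr4:101717157-101717406, plus strand, the first of 2 starts: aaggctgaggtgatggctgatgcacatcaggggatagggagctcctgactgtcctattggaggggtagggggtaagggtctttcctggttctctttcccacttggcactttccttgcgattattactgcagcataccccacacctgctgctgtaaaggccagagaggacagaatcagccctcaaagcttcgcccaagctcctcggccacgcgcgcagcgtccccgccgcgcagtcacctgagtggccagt
Nr3c2, chr8:76902080-76902329, plus strand: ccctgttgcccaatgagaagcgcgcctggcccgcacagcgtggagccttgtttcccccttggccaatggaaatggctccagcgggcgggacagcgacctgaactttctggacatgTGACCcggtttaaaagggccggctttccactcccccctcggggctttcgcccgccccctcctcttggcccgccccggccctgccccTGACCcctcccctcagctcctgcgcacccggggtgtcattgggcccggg
Tsc22d3, chrX:140600523-140600772, minus strand, the farthest upstream of 3 starts: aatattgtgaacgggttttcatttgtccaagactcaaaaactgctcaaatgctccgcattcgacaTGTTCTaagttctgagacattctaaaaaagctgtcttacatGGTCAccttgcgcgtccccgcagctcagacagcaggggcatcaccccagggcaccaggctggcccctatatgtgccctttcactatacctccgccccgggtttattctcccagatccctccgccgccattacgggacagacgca
RefSeq promoter entries were matched for 8 of the 9 genes, with 15 starts in all. TGTTCT was found before 2 of the 15 starts (1 of Prlr and the Tsc22d3 start shown) and before 16.1% of the 32851 starts in the reference table. GGTCA was found before 3 of the 15 starts (the Nr3c2 start and 2 of the Tsc22d3 starts) and before 35.2% of all starts. The full paired elements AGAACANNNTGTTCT and GGTCANNNTGACC, which contain these half-sites, were found before none of the 15 starts and before 0.00913% and 0.0639% of all starts. These matches describe letters in a short window and are not binding sites.

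The 9 genes differed widely in level. On summed FPKM, which is per transcript length, Fkbp5 had the highest level in every library (101.6 to 203.5), and Nr3c1 (58.6 to 88.3) and Tsc22d3 (32.5 to 104.5) followed, all 3 above the 95th percentile of the 19376 genes with counts. The ranges of Nr3c1 and Tsc22d3 overlapped at 3M but not at 2W or 6W, and their order was reversed at 6W. Ghr came next (2.41 to 13.2 FPKM), before Esr1 (0.82 to 3.46), Pgr (0.16 to 2.59), Nr3c2 (0.29 to 1.65), Lepr (0.15 to 1.12) and Prlr (0.22 to 0.52). At 2W, Pgr and Lepr were the lowest of the 9 genes. At 3M Prlr was the lowest and Pgr overlapped with Esr1.

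**Figure D1:**
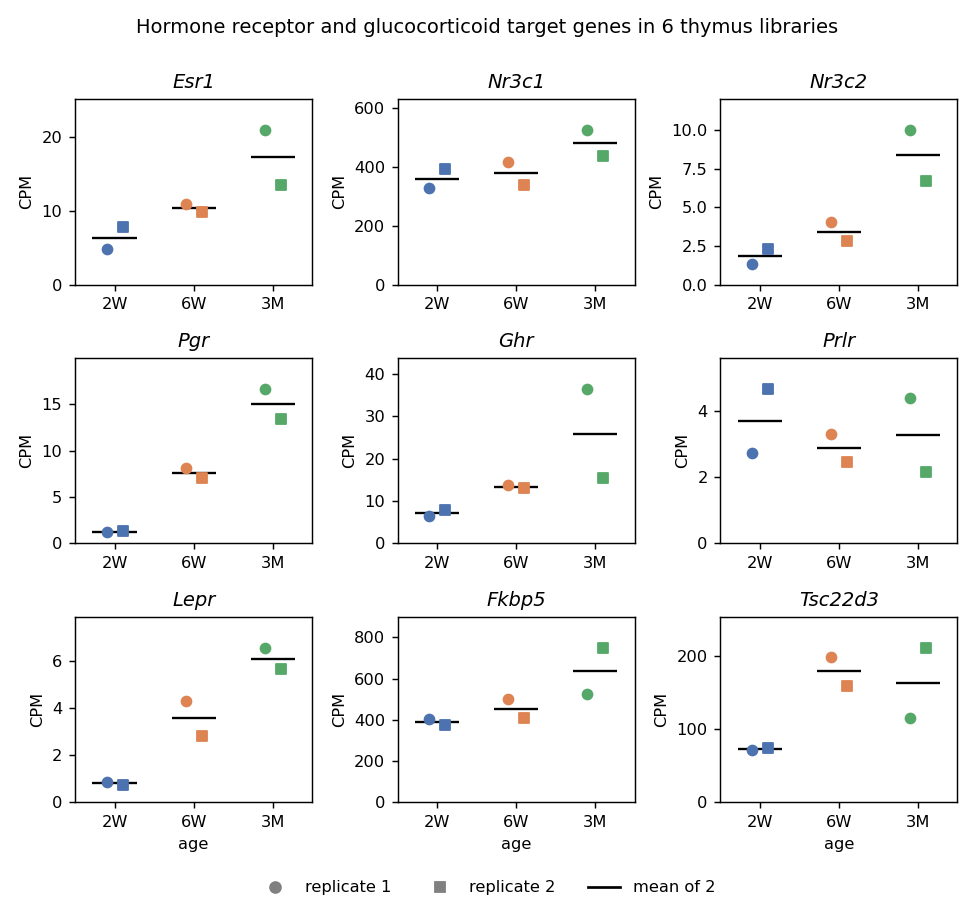
Normalised counts (CPM, y axis, each panel from 0) of the 9 genes in the 6 thymus libraries, by age (x axis), with circles for replicate 1, squares for replicate 2 and a line at the mean. Esr1, Nr3c2, Pgr, Ghr, Lepr and Fkbp5 lay in the order 2W, 6W, 3M without overlap, while Prlr overlapped between all ages.

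Across the 3 ages, 6 of the 9 genes (Esr1, Nr3c2, Pgr, Ghr, Lepr and Fkbp5) had both 6W libraries above both 2W libraries and both 3M libraries above both 6W libraries on normalised counts (CPM, counts per 1000000 of the TMM-scaled library size), a pattern that 8.79% of the 14805 tested genes had. For Nr3c2 this order held only with assembled transcripts counted. Between 2W and 3M, 6 of the 9 genes passed an adjusted p of 0.05 in edgeR's quasi-likelihood test, all higher at 3M (Esr1, Nr3c2, Pgr, Ghr, Lepr and Tsc22d3). Of all tested genes, 11.0% were called in that comparison and 7.91% were called as higher. Between 2W and 6W, 2 of the 9 genes were called (Pgr and Lepr), both higher at 6W, against 1.74% of all tested genes and 1.47% called as higher. Between 6W and 3M none of the 9 genes was called, against 0.00675% of all genes (1 gene). In that last comparison 6 of the 9 genes had an unadjusted p under 0.05 in edgeR, against 14.3% of all genes, and DESeq2 called 1 of them, Pgr, against 2.30% of all genes. The median log2 fold change of the 9 genes was 0.90 at 6W against 2W, 0.73 at 3M against 6W and 1.45 at 3M against 2W, while the median over all tested genes was -0.0061, 0.023 and -0.026. The comparisons share libraries, so their values stand side by side and are not separate evidence. A test of any difference between the 3 ages called Nr3c2, Pgr and Lepr, 3 of 9 genes against 5.63% of all genes.

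The study's own threshold was an unadjusted p under 0.05 with a log2 fold change over 1 in size. The study used it with DESeq, and here it was put to the edgeR test of gene sums, so these are not the study's calls. It was passed by 3 of the 9 genes at 6W against 2W (Pgr, Lepr and Tsc22d3), where 5.36% of all genes passed it. At 3M against 6W it was passed by Nr3c2 alone, where 2.11% passed, and at 3M against 2W by the same 6 genes that passed the adjusted p, where 9.35% passed.

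**Figure D2:**
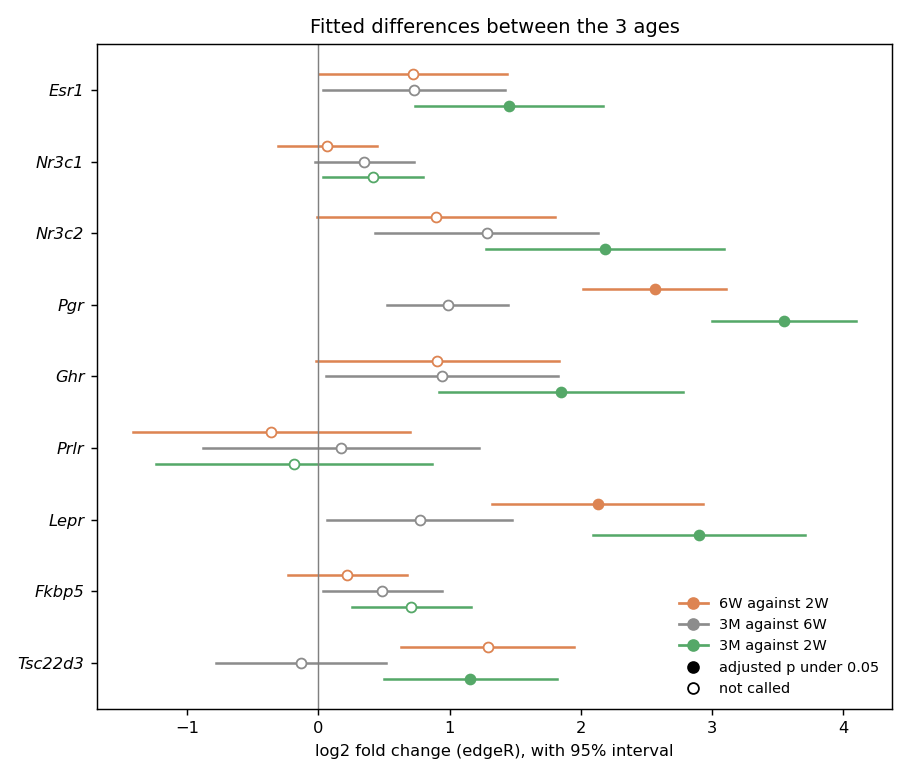
Fitted log2 fold changes (x axis) of the 9 genes between the 3 ages, with 95% intervals from edgeR, filled points having an adjusted p under 0.05. Pgr and Lepr have the largest positive values, Prlr lies around 0 in all 3 comparisons, and no point of 3M against 6W is filled.

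Among the steroid receptors Pgr showed the largest difference. It had 1.20 and 1.35 CPM in the 2W libraries, 8.14 and 7.02 CPM in the 6W libraries and 16.7 and 13.4 CPM in the 3M libraries. The ages did not overlap. These levels rest on 19 and 22 estimated counts at 2W, 168 and 159 at 6W, and 277 and 299 at 3M. Pgr rose by a log2 fold change of 2.56 ± 0.23 (SE, n = 2 against 2) from 2W to 6W, a factor of 5.91 (edgeR, adjusted p = 0.019). From 2W to 3M it rose by 3.55 ± 0.23, a factor of 11.7 with an interval of 8.01 to 17.1 (adjusted p = 0.0042). From 6W to 3M the difference was 0.99 ± 0.19 with an adjusted p of 0.206. The 3M call held with each library left out in turn, and the 6W call ended when any 2W or 6W library was left out (adjusted p from 0.113 to 0.181).

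Nr3c2 had 1.33 and 2.33 CPM at 2W, 4.02 and 2.82 CPM at 6W and 9.98 and 6.72 CPM at 3M. The 3 ages did not overlap in these sums, which hold 7.77% to 81.0% of counts from assembled transcripts. On Ensembl transcripts alone Nr3c2 had 0.626 and 0.443 CPM at 2W, 0.909 and 2.61 CPM at 6W and 3.01 and 2.03 CPM at 3M, where 6W and 3M overlapped and both lay above 2W. Nr3c2 rose by 2.18 ± 0.38 on the log2 scale from 2W to 3M (edgeR, adjusted p = 0.019), while neither step alone was called (0.90 ± 0.38 with an adjusted p of 0.267, and 1.28 ± 0.36 with an adjusted p of 0.242). The call was lost when 2W replicate 1 (adjusted p = 0.086) or 2W replicate 2 (adjusted p = 0.0501) was left out.

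Esr1 had 4.81 and 7.79 CPM at 2W, 10.9 and 9.84 CPM at 6W and 21.0 and 13.6 CPM at 3M, again without overlap. It rose by 1.45 ± 0.30 on the log2 scale from 2W to 3M (edgeR, adjusted p = 0.0295), with 0.72 and 0.73 for the steps and no call in either. The adjusted p lay between 0.0525 and 0.121 when any library other than 3M replicate 2 was left out.

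Nr3c1, by far the most abundant of the 4 steroid receptors on summed FPKM, had 329 and 393 CPM at 2W, 417 and 339 CPM at 6W, and 526 and 439 CPM at 3M. The 2W and 6W libraries overlapped, and both 3M libraries lay above all the others. The fitted log2 fold change was 0.07 ± 0.16 at 6W against 2W, with an interval of -0.31 to 0.45, and 0.42 ± 0.16 at 3M against 2W, with an interval of 0.04 to 0.80 and an adjusted p of 0.148. Neither passed the test.

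Among the membrane receptors, Lepr had 0.885 and 0.736 CPM at 2W, 4.31 and 2.82 CPM at 6W and 6.56 and 5.64 CPM at 3M. The ages did not overlap, and the 2W levels rest on 14 and 12 estimated counts. Lepr rose by 2.13 ± 0.34 on the log2 scale from 2W to 6W (edgeR, adjusted p = 0.041) and by 2.90 ± 0.34 from 2W to 3M, a factor of 7.47 (adjusted p = 0.0073). From 6W to 3M the difference was 0.77 ± 0.29 and was not called. As for Pgr, the 3M call held with each library left out in turn, while the 6W call ended without any 2W or 6W library (adjusted p from 0.137 to 0.290).

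Ghr had 6.51 and 7.79 CPM at 2W, 13.8 and 13.1 CPM at 6W and 36.4 and 15.4 CPM at 3M. The ages did not overlap, but the 3M libraries differed from each other more than the 6W libraries differed from 2W. Ghr rose by 1.85 ± 0.39 on the log2 scale from 2W to 3M (edgeR, adjusted p = 0.031). Without 3M replicate 1 the difference was 1.13 (adjusted p = 0.019) and without 3M replicate 2 it was 2.31 (adjusted p = 0.0039), and leaving out any of the 2W or 6W libraries ended the call (adjusted p from 0.065 to 0.152).

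Prlr had 2.72 and 4.66 CPM at 2W, 3.30 and 2.47 CPM at 6W and 4.39 and 2.15 CPM at 3M. All ages overlapped. The fitted log2 fold change was -0.36 ± 0.44 at 6W against 2W and -0.18 ± 0.44 at 3M against 2W, with an interval of -1.24 to 0.87, which leaves differences of either sign within reach of 43 to 76 estimated counts per library.

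Of the glucocorticoid targets, Tsc22d3 had 72.1 and 74.5 CPM at 2W, 199 and 159 CPM at 6W and 116 and 211 CPM at 3M. Both 6W libraries lay above both 2W libraries, and the 6W and 3M libraries overlapped. The 3M libraries also lay above both 2W libraries, but only with assembled transcripts counted. Tsc22d3 rose by 1.16 ± 0.28 on the log2 scale from 2W to 3M (edgeR, adjusted p = 0.045), and the value at 6W against 2W was 1.29 ± 0.28 with an adjusted p of 0.081. DESeq2 called that difference (adjusted p = 0.0002), and edgeR did so in 4 of its alternatives (adjusted p from 0.014 to 0.028). Without 3M replicate 2 the 3M difference was 0.63 (adjusted p = 0.062) and without 3M replicate 1 it was 1.55 (adjusted p = 0.0074), and leaving out any 2W or 6W library also ended the call (adjusted p from 0.082 to 0.180). The sum joins 1 assembled transcript that the table lists under the capital spelling TSC22D3, and without it the 3M difference was 1.10 with an adjusted p of 0.193.

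Fkbp5 had 403 and 375 CPM at 2W, 501 and 407 CPM at 6W and 525 and 749 CPM at 3M. The ages did not overlap, with 3M replicate 2 well above the rest. The fitted log2 fold change was 0.22 ± 0.19 at 6W against 2W and 0.71 ± 0.19 at 3M against 2W, with an interval of 0.26 to 1.16 and an adjusted p of 0.062 in edgeR, which missed the threshold. DESeq2 called Fkbp5 at 3M against 2W (adjusted p = 0.0070), and edgeR did so with scaling by total counts (adjusted p = 0.049), without the low-count filter (adjusted p = 0.042) and without 3M replicate 1, where the difference was 0.97 (adjusted p = 0.015). Without 3M replicate 2 it was 0.40 (adjusted p = 0.147).

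A wider list of 20 other glucocorticoid-induced genes, all tested, gave 1 call at 6W against 2W and 8 calls at 3M against 2W, of which 7 were higher (Per1, Zbtb16, Klf9, Il7r, Glul, Errfi1 and Anxa1) and 1 was lower (Hif3a). Over all genes 1.74% and 11.0% were called, so that the 1 call at 6W is near that share. At 6W against 2W 12 of the 20 genes had an unadjusted p under 0.05, against 18.9% of all genes, and DESeq2 called 7 of the 20, against 6.00% of all genes. The list's median log2 fold change was 0.71 at 6W against 2W and 0.76 at 3M against 2W, beside -0.0061 and -0.026 over all genes. Glul, which encodes glutamine synthetase, had 202 and 204 CPM at 2W, 343 and 318 CPM at 6W and 378 and 361 CPM at 3M, and it rose in both comparisons with 2W (0.70 ± 0.10, adjusted p = 0.035, and 0.87 ± 0.10, adjusted p = 0.0072). Klf9, a zinc finger repressor, had 9.55 and 10.9 CPM at 2W, 24.0 and 15.7 CPM at 6W and 36.8 and 32.5 CPM at 3M, and rose by 1.76 ± 0.22 on the log2 scale at 3M (adjusted p = 0.0091). Il7r, the receptor chain for the T cell survival factor interleukin 7, rose by 1.10 ± 0.16 at 3M (adjusted p = 0.013). Hif3a, a hypoxia-inducible factor subunit, went the other way, from 8.98 and 8.28 CPM at 2W to 3.31 and 3.76 CPM at 3M, and fell by 1.28 on the log2 scale (SE 0.20, adjusted p = 0.014). The 8 calls at 3M became 0 without 2W replicate 1 (adjusted p of Glul 0.053 and of Klf9 0.061), 4 without 2W replicate 2 and 5 without 3M replicate 2. In the first 2 of these fits the calls over all genes went from 1630 to 239 and 289, while the log2 fold change was 0.86 and 0.88 for Glul and 1.67 and 1.86 for Klf9. The Glul call at 6W ended without any 2W or 6W library (adjusted p from 0.136 to 0.329).

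**Figure D3:**
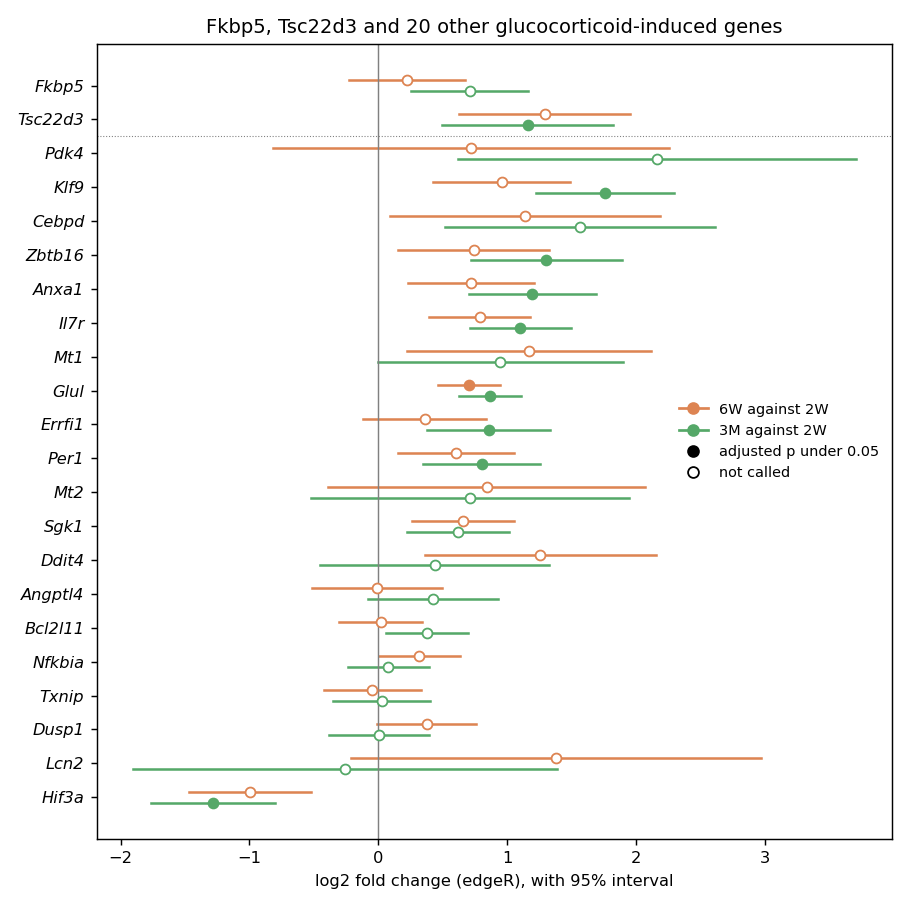
Fitted log2 fold changes (x axis) of Fkbp5, Tsc22d3 and 20 other glucocorticoid-induced genes at 6W and 3M against 2W, with 95% intervals from edgeR, filled points having an adjusted p under 0.05. Of the 20 genes, 7 are called higher and Hif3a is called lower at 3M, and Glul is the only one called at 6W.

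The 15 receptor chaperones and cofactors gave no call at 6W against 2W in edgeR or DESeq2, with 0 of 15 at an unadjusted p under 0.05, where 18.9% of all genes had one and DESeq2 called 6.00%. They gave 3 edgeR calls at 3M against 2W, with a median of -0.04, and 3 of 15 is not far from the 11.0% called over all genes. DESeq2 called 5 of the 15 in that comparison, against 14.9% of all genes. Hsp90ab1, an HSP90 chaperone that holds steroid receptors ready for hormone, rose from 1665 and 1332 CPM at 2W to 2110 and 2486 CPM at 3M (0.62 ± 0.14 on the log2 scale, adjusted p = 0.036). Fkbp4, a co-chaperone of the same complex and a paralogue of Fkbp5, rose by 0.66 ± 0.16 (adjusted p = 0.049). Smarca4, the ATPase of a chromatin remodelling complex, fell by 0.64 on the log2 scale (SE 0.15, adjusted p = 0.042). All 3 calls ended when any 2W or 6W library was left out.

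Of 19 genes of steroid synthesis and conversion, 9 passed the filter on low counts and none was called in any comparison by edgeR or DESeq2, with 1 unadjusted p under 0.05 (Hsd11b1 at 3M against 2W). Over all genes 11.0% were called at 3M against 2W by edgeR and 14.9% by DESeq2, and 27.3% had an unadjusted p under 0.05, so that counts of 0 and 1 among 9 genes are not set apart from the rest. Their median log2 fold change at 3M against 2W was 0.03. H6pd, which supplies the cofactor that Hsd11b1 uses, had 155 and 149 CPM at 2W and 144 and 132 CPM at 3M, and Hsd11b1, which makes active glucocorticoid from its inactive form, had 19.7 and 24.2 CPM at 2W and 28.6 and 27.8 CPM at 3M (0.36 ± 0.13 on the log2 scale, adjusted p = 0.145). Of 15 ligands and relay genes of growth hormone, prolactin and leptin, 13 were tested and none was called in edgeR, with a median of 0.14 at 3M against 2W. In that comparison 4 had an unadjusted p under 0.05 (Lep, Stat3, Socs1 and Socs2), and DESeq2 called 2 of them (Lep and Socs2). Over all genes these shares were 27.3% and 14.9%, near those of the 13 genes. Stat5b and Stat3, the transcription factors of these receptors with the highest level, had log2 fold changes of -0.20 ± 0.12 (adjusted p = 0.339) and 0.32 ± 0.12 (adjusted p = 0.148) at 3M against 2W. Prl had no count in any library and Gh at most 1, and a count of 0 allows up to 3 counts. Lep, the leptin gene, picked out because its receptor is among the 9 genes, had 6 and 4 estimated counts at 2W, 24 and 48 at 6W and 69 and 23 at 3M. Its difference between 2W and 3M was 3.01 ± 0.81 on the log2 scale and missed the threshold (adjusted p = 0.063), and it stood at 1.73 when 3M replicate 1 was left out and at 3.67 when 3M replicate 2 was (adjusted p = 0.019).

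Marker genes of several cell types moved over the same ages as the receptors. The 10 adipocyte markers summed to 72.5 and 90.7 CPM at 2W, 224 and 237 CPM at 6W and 571 and 291 CPM at 3M, and 4 of 10 were called as higher at 6W and 9 of 10 at 3M against 2W. The 10 myeloid markers summed to 301 to 347 CPM at 2W, 669 to 719 CPM at 6W and 743 to 771 CPM at 3M, with 8 of 10 called as higher at 3M. The 10 B cell markers summed to 373 to 467 CPM at 2W, 596 to 676 CPM at 6W and 692 to 740 CPM at 3M, with 2 of 10 called as higher at 3M (Ighm and Cd22). Most of that sum was Ighm, with 391.5 and 310.5 CPM at 2W and 642.4 and 609.0 CPM at 3M. At 3M against 2W, 8 of the 10 had a log2 fold change above 0, while Cd79b and Mzb1 had lower means. The 10 markers of double-positive thymocytes, which check the tissue, all had counts and summed to 16090 to 18030 CPM at 2W, 14870 to 14960 CPM at 6W and 12840 to 13160 CPM at 3M, with 5 of 10 called as lower at 3M. The 10 fibroblast markers summed to 570 to 622 CPM at 2W and 393 to 486 CPM at 3M. Of these, 3 were called as higher at 3M (Pdgfra, Dcn and Dpt) and 3 as lower (Col1a1, Col3a1 and Fbn1). The 10 endothelial markers summed to 242 to 273 CPM in all 6 libraries, with 2 of 10 called as higher at 3M (Plvap and Vwf). The 10 thymic epithelium markers summed to 1389 to 1535 CPM at 2W, 1506 to 1541 CPM at 6W and 1617 to 1797 CPM at 3M. At 3M against 2W, Prss16 was called as higher and Foxn1 and Dll4 as lower, and Dll4 was also called as lower at 6W. No marker of these lists was at 0 in all libraries. Over all tested genes, 7.91% were called as higher and 459 of 14805 as lower at 3M against 2W. At 6W against 2W, 1.47% were called as higher and 39 of 14805 as lower. The 2 of 10 called as higher in the B cell and endothelial lists are not far from the share at 3M. The part of these cell types in the receptor values was not tested.

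**Figure D4:**
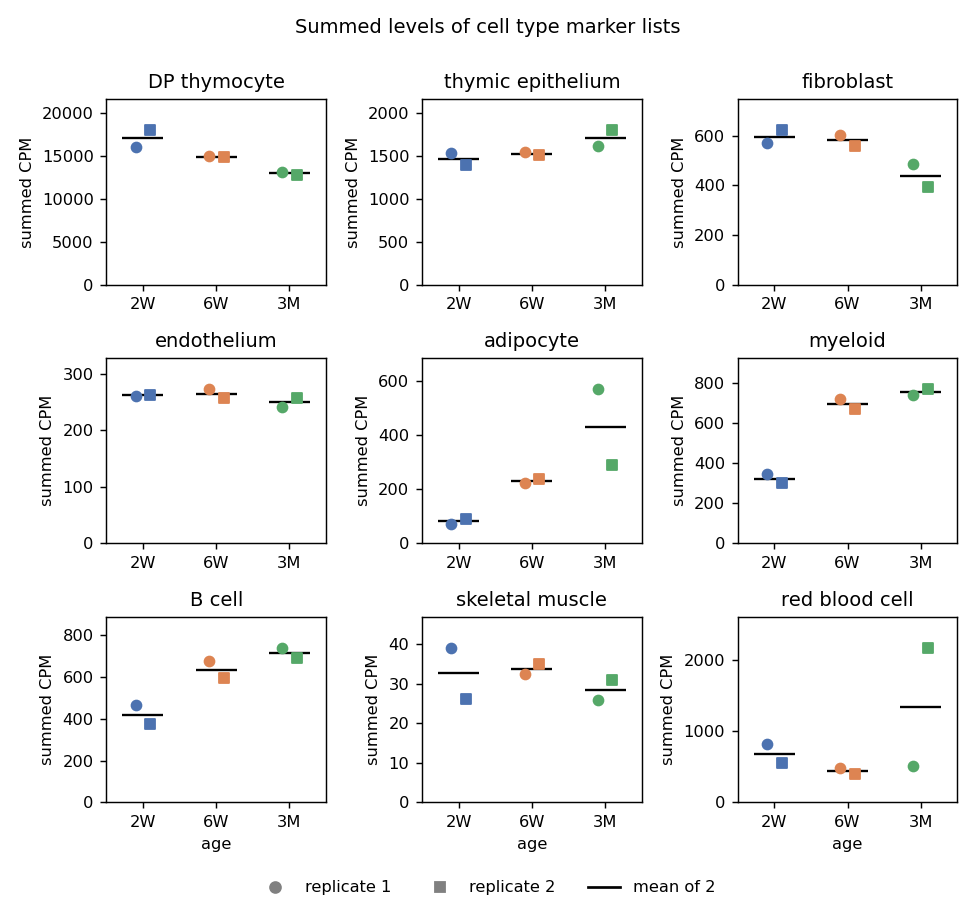
Summed CPM (y axis, each panel from 0) of 9 lists of cell type markers in the 6 libraries, by age (x axis), with circles for replicate 1, squares for replicate 2 and a line at the mean. Adipocyte, myeloid and B cell sums are higher at 6W and 3M than at 2W, the thymocyte sum is lower, and the 3M libraries stand apart from each other in adipocyte markers (571 and 291 CPM) and red blood cell markers (512 and 2169 CPM).

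The members were also set against the adipocyte marker sum of the same library. The mean of that sum rose by a factor of 5.28 from 2W to 3M. A gene that rose by less than that tends to be lower in this ratio, so the ratio restates each gene's change beside that of the sum. Pgr had 1.66 and 1.49 CPM for each 100 CPM of adipocyte markers at 2W and 2.92 and 4.61 at 3M, so that both 3M libraries stayed above both 2W libraries. For Lepr the values were 1.22 and 0.811 at 2W against 1.15 and 1.94 at 3M, and for Nr3c2 they were 1.83 and 2.57 against 1.75 and 2.31, with overlap in both. For Ghr they were 8.98 and 8.58 at 2W against 6.37 and 5.30 at 3M, and for Esr1 6.63 and 8.58 against 3.68 and 4.67, which put both 3M libraries below both 2W libraries. Nr3c1 (454 and 433 against 92.1 and 151) and Prlr (3.75 and 5.14 against 0.769 and 0.740) were also below their 2W values in both 3M libraries. So were Fkbp5 (556 and 414 against 91.9 and 258) and Tsc22d3 (99.5 and 82.1 against 20.3 and 72.6). On Ensembl transcripts alone Tsc22d3 overlapped, with 99.15 and 47.38 against 11.95 and 61.89. For Ghr the lower 3M values also held only with an assembled transcript counted. On Ensembl transcripts alone the Ghr values were 2.46 and 4.22 at 2W against 1.47 and 4.58 at 3M, with overlap. Against the fibroblast marker sum, Pgr, Lepr, Nr3c2, Ghr and Esr1 were higher in both 3M libraries than in both 2W libraries, Pgr with 0.211 and 0.217 at 2W and 3.43 and 3.41 at 3M. That sum is weighted by collagen genes that fell, such as Col3a1 with 245.8 and 273.0 CPM at 2W and 124.1 and 97.07 CPM at 3M. The fibroblast markers were split, 5 of 10 having a log2 fold change above 0. Pdgfra, for example, rose from 7.208 and 9.625 to 24.36 and 19.49 CPM, so this ratio is not a level per fibroblast.

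The 3M libraries also differed from each other. Replicate 1 held more adipocyte marker RNA (571 against 291 CPM) and more Esr1 (21.0 against 13.6 CPM), Nr3c2 (9.98 against 6.72 CPM) and Prlr (4.39 against 2.15 CPM). By less, it also held more Nr3c1, Pgr and Lepr. It held more Ghr (36.4 against 15.4 CPM) only with an assembled Ghr transcript counted, since Ensembl transcripts alone gave 8.39 against 13.3 CPM. Replicate 2 held more red blood cell marker RNA (2169 against 512 CPM) and more Fkbp5 (749 against 525 CPM) and Tsc22d3 (211 against 116 CPM). The part of these markers in the values of these genes was not tested.

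Genes with the most similar profile were sought among 13470 tested genes with a mean of at least 1 CPM, by Pearson's r of log2 CPM over the 6 libraries, which share their ages and sizes. For Pgr these were Sh3d19 and Gpx3 (both r = 0.998), for Lepr Myo1f (r = 0.999) and Msc (r = 0.998), for Ghr Aoc3 (r = 0.999) and Pcx (r = 0.997), for Nr3c2 Pck1 (r = 0.998) and Tmem159 (r = 0.996), and for Esr1 Ago4 (r = 0.998) and St8sia6 (r = 0.997). For Nr3c1 they were Lsamp (r = 0.987) and Prkra (r = 0.986), for Prlr Klf6 (r = 0.995) and Psma3 (r = 0.994), for Fkbp5 Atg4b (r = 0.989) and Sema6d (r = 0.986), and for Tsc22d3 Arf5 (r = 0.990) and Tmem101 (r = 0.989). Many genes came close, from 57 genes with r over 0.95 for Fkbp5 to 521 for Pgr, so that over 6 points such likeness is common.

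Each gene sum holds several transcripts, whose shares are the authors' estimates. For Fkbp5, 1 transcript (ENSMUST00000079413) took 91.7% to 96.0% of the counts in every library, and for Pgr ENSMUST00000189181 took 68.5% to 100%. For Nr3c1, ENSMUST00000115571 took 74.4% and 70.2% at 2W, 73.7% and 74.9% at 6W, and 46.4% and 48.3% at 3M, so that the 3M libraries stood apart from the other 4. ENSMUST00000025300 took 20.5% and 18.2% of the Nr3c1 counts at 3M and at most 12.9% in the other libraries. In Ghr the assembled transcript TCONS_00041255, which is not an Ensembl transcript, took 76.9% in 3M replicate 1 (466 counts) and 13.5% in 3M replicate 2 (46.6 counts). On Ensembl transcripts alone, Ghr had 1.78 and 3.83 CPM at 2W, 5.84 and 6.60 CPM at 6W and 8.39 and 13.3 CPM at 3M, with the ages still apart and replicate 2 now the higher 3M library. In Tsc22d3 the Ensembl transcripts alone had 71.9 and 43.0 CPM at 2W, 148 and 149 CPM at 6W and 68.2 and 180 CPM at 3M, where the 2W and 3M libraries overlapped. Nr3c2 counts were spread over transcripts that changed from library to library, with the leading one, the assembled TCONS_00115864, between 0% and 81.0%.

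**Figure D5:**
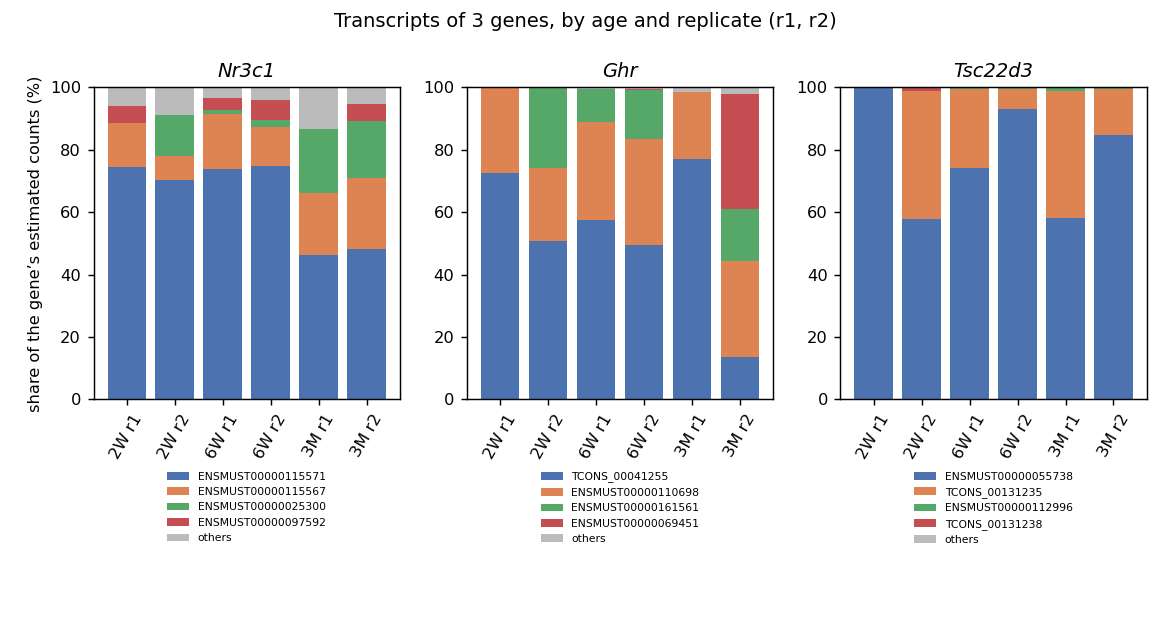
Share of each gene's estimated counts (y axis, percent) assigned to its transcripts in the 6 libraries (x axis, age and replicate) for Nr3c1, Ghr and Tsc22d3, with the 4 transcripts of highest total count in colour and the others in grey. The leading Nr3c1 transcript takes 70.2% to 74.9% at 2W and 6W and 46.4% to 48.3% at 3M, and the leading Ghr transcript takes 76.9% in one 3M library and 13.5% in the other.

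Depth was similar between libraries, from 16519753 estimated counts (2W replicate 1) to 22553481 (6W replicate 2), and 0.699% to 1.20% of them belonged to transcripts with no gene symbol. At 6W against 2W, 84.8% of the 257 called genes were higher at 6W, and with DESeq2 71.2% of 888.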

How the data were processed

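The authors deposited estimated counts, which need not be whole, and FPKM for each mRNA transcript, and whole junction counts per circRNA. The program and genome build were not given in the sources used here. The submitters' processing notes name Bowtie 0.12.2 and mm8 without a role. Of the estimated counts, 45.1% are not whole numbers, and they were rounded after summing by gene symbol. Symbols that differ only in case were joined for 665 genes, and 372 of 77525 transcripts without a symbol (0.699% to 1.20% of the counts) were left out.

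The labelled age set the groups. All 6 entered one fit in edgeR 4.0.16 (R 4.3.3) with TMM, filterByExpr by age, glmQLFit and glmQLFTest, and age as the only term. Benjamini-Hochberg adjustment was over 14805 genes, and 8038 genes did not pass the filter. Standard errors come from the fold change and the F statistic, and intervals are at 95%. With 2 libraries per age an exact permutation test cannot give a p below 0.333, so none was used. Whether a library is 1 mouse or several was not given. CPM uses the TMM-scaled library size, and FPKM was summed over transcripts. The test was tested on simulated data.

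The members, gene lists and tests were chosen with earlier results of these data known. From each list up to 4 called genes with the smallest p are named, or, where none was called, the 2 with the highest mean FPKM, and for each member the 2 genes most like it. Other genes called in a list are named without full values, and Lep, Gh, Prl, Socs1 and Socs2 were named after their values were seen. A list of other nuclear receptors is not reported here. Alternatives were DESeq2 1.42.0 (median-ratio size factors), scaling by total counts alone, leaving the low-count filter out, a replicate block, symbols kept apart by case, prior count 2 in place of 0.125, only the 4 libraries compared, the ratio of mean summed FPKM, and each library left out in turn. Columns of the authors' own comparisons and the miRNA and lncRNA tables were not used here. Sums, lists and plots used pandas 2.3.3 under Python 3.11.15.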

Additional observations from a re-analysis of the deposited data

Results flagged for a closer look

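Back-spliced junction counts, which the comparisons above do not use, were listed for 2 of the 9 genes. In the circRNA table, 6 of 6300 circRNAs were assigned to them, 4 to Fkbp5 and 2 to Nr3c1, and none to the other 7. The Fkbp5 circRNAs had 58 junction counts over the 6 libraries. They were 13 and 3 at 2W, 8 and 19 at 6W and 9 and 6 at 3M, with overlap between all ages. Of these, 38 came from 1 circRNA (novel_circ_002525, 2514 bases of annotated exons). The Nr3c1 circRNAs had 24 junction counts, 2 and 6 at 2W, 1 and 1 at 6W and 8 and 6 at 3M. The table marks 1 of the 2 as antisense, and its 5 counts were all in 3M replicate 1. No age difference was tested at these counts.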

How the results depend on the processing

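At 3M against 2W, Pgr and Lepr were called under every alternative with a test. The number of called genes among the 9 was 6, and it was 7 (with Fkbp5 added) in DESeq2, with scaling by total counts and without a filter, 5 (without Tsc22d3) when symbols were kept apart by case, 3 with only the 4 libraries compared and 2 to 6 with 1 library left out. The share called over all genes was 11.0%, and in these fits 14.9% (DESeq2), 12.1% (total counts), 9.52% (no filter), 9.43% (case), 4.62% (4 libraries) and 1.55% to 11.4% (1 library left out). At 6W against 2W it was 2, with 3 (with Tsc22d3 added) in DESeq2 and without a filter, 1 when symbols were kept apart by case, 4 (Pgr, Ghr, Lepr and Tsc22d3) with only the 4 libraries compared, and 0 to 4 with 1 library left out, where leaving out any 2W or 6W library gave 0 and leaving out either 3M library gave 4. Over all genes 1.74% were called here, with 6.00% in DESeq2, 2.42% without a filter, 0.816% by case and 4.59% with the 4 libraries. Leaving out a 2W or 6W library gave 0 to 2 calls over all genes and leaving out a 3M library gave 658 and 615, while the log2 fold change of Pgr stayed between 2.46 and 2.68. At 3M against 6W it was 0, and 1 with DESeq2, which called 2.30% of all genes there. For any difference between the 3 ages it was 3, with 7 in DESeq2, 6 without a filter and 0 to 6 with 1 library left out, where leaving out either 2W library gave 0. Over all genes 5.63% were called in that test, with 13.9% in DESeq2, 6.52% without a filter and 0.0260% to 6.96% with 1 library left out. Without 1 library, the remaining one of that age is assumed to vary like the others. The cause of these moves was not tested.

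With a replicate block the number of called genes was 0 at 6W against 2W and 3 at 3M against 2W (Nr3c2, Pgr and Lepr). The correlation of the deviations of same-numbered libraries was -0.058 (2W and 6W), 0.353 (6W and 3M) and -0.178 (2W and 3M). With 2 libraries per age these values cannot decide whether same-numbered libraries were handled together. Over all genes the block gave 5 calls at 6W against 2W and 742 at 3M against 2W, where the fit without it gave 257 and 1630.

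Some log2 fold changes near 0 changed sign with 1 library left out. They ranged from -0.087 to 0.226 for Nr3c1 and from -0.693 to 0.109 for Prlr at 6W against 2W, from -0.411 to 0.555 for Prlr and from -0.682 to 0.245 for Tsc22d3 at 3M against 6W, and from -0.755 to 0.253 for Prlr at 3M against 2W. Over all genes, the alternatives gave 0 to 888 calls at 6W against 2W, 0 to 341 at 3M against 6W and 239 to 2200 at 3M against 2W, with DESeq2 giving the most in each. For the 20 other glucocorticoid-induced genes DESeq2 gave 7 calls at 6W against 2W, where edgeR gave 1, and 10 calls at 3M against 2W, where edgeR gave 8, beside 6.00% and 14.9% of all genes called by DESeq2. For the 15 chaperones and cofactors at 3M against 2W, DESeq2 gave 5 calls and the fit of the 4 libraries compared gave 0, where the fit of all 6 gave 3. Over all genes these fits called 14.9%, 4.62% and 11.0%.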
